A study of Mus musculus with 15 samples.

Results

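Capillary endothelial cells (ECs) of the mouse aorta made up 32095 of the 48087 ECs and of the 128019 cells kept in 15 single-cell RNA libraries. The cells were chosen by their own counts of unique molecular identifiers (UMIs, 1 per captured RNA molecule). A cell was kept with 200 to 7000 genes and at most 25% mitochondrial UMIs. It counted as a capillary EC when at least 3 of the 6 pan-endothelial genes Cdh5, Pecam1, Kdr, Egfl7, Cldn5 and Tie1 had a UMI, Ptprc, Prox1 and Vwf had none, and Col1a1, Lum and Pdgfra had at most 1 together. It also had to hold at least 3 of the 5 capillary markers Gpihbp1, Car4, Timp4, Tcf15 and Rgcc, and more of these than of the arterial markers Sema3g, Stmn2, Hey1, Sox17 and Alpl. Each library held 1029 to 3158 such cells.

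Capillary ECs form the thin exchange vessels that feed tissue, and in the aorta they belong to the small vessels of its wall and of tissue left attached to it. They carry lipoprotein lipase on Gpihbp1 and take up fatty acids through Cd36 and the fatty acid binding proteins Fabp4 and Fabp5. Like other ECs, they display peptides to T cells on MHC class I molecules, respond to interferon and hold a circadian clock.

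The study asked whether fisetin, a plant flavonoid given as a senolytic (an agent meant to clear senescent cells), changes senescence and its secreted factors in the aging vessel wall. C57BL/6N mice labeled 3 months old (young) or 27 months old (old) were gavaged with vehicle or with fisetin at 100 mg/kg/day. Dosing ran for 1 week, paused for 2 and ran for 1 more, and the aortas, freed of perivascular fat, were digested and sorted for viable cells. Each library pooled mice of 1 sex, 3 by the labels and 2 to 3 by the study's methods, so that replicates are pools and p-values measure the spread between these pools. The 4 groups were Y VEH and Y FIS (young, vehicle or fisetin, 2 female and 2 male libraries each), O VEH (old, vehicle, 2 female libraries and 1 male) and O FIS (old, fisetin, 2 female and 2 male libraries). The study's methods give a different age for the young mice than the labels do.

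Capillary cells supplied 4793988 to 12042788 UMIs per library, with a median of 2475 to 4476 UMIs and 1447 to 2074.5 genes per cell. Y FIS M1 (library names join group, sex and number) stood apart with 14805 cells kept and the shallowest capillary cells. Between libraries, capillary cells shared 133 barcodes over all pairs and at most 6 in any pair. The median mitochondrial share of a library's capillary cells ran from 2.50 to 11.4%.

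The marker plot sets the levels that chose the cells beside 10 capillary markers that the rule did not use. As a description of the choice, 63.6% of the capillary cells held all 5 rule markers, 25.1% held 4 and 11.3% held 3. Cells just inside the threshold, with 3 markers, averaged 1844 CPM (UMI counts scaled to equal depth) of Gpihbp1, 282 of Car4, 380 of Timp4, 400 of Tcf15 and 1049 of Rgcc. The 2428 cells just outside it, with 2 markers, averaged 958, 157, 203, 219 and 874 CPM of the same genes.

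**Figure D1:**
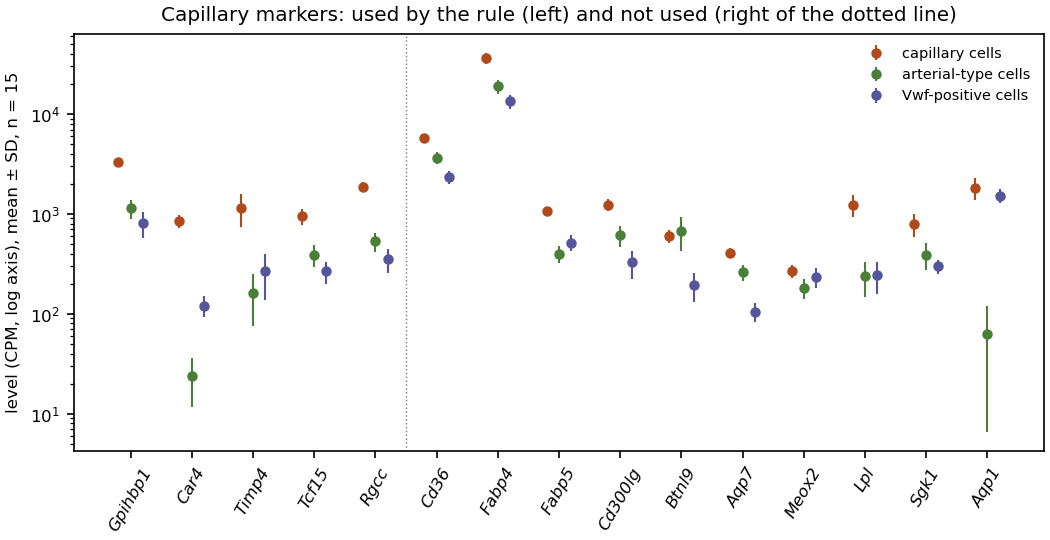
Levels of the 5 markers that chose the cells and of 10 further capillary markers, in CPM on a log axis, in capillary, arterial-type and Vwf-positive ECs (mean ± SD, n = 15 libraries). Fabp4 at 36268 CPM is the highest marker in capillary cells, and Btnl9 stands at 600 CPM there and 675 CPM in arterial-type ECs.

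Of the 10 markers outside the rule, 7 were higher in capillary than in Vwf-positive ECs and in arterial-type ECs in every library. They were Cd36, Fabp4, Fabp5, Cd300lg, Aqp7, Lpl and Sgk1. Fabp4, which carries fatty acids in the cytosol, stood at 36268 ± 4864 CPM (SD, n = 15 libraries) in capillary, 18874 in arterial-type and 13446 in Vwf-positive ECs. Lpl, lipoprotein lipase, stood at 1241 ± 309 CPM in capillary ECs and at 239 and 244 CPM in the same 2 classes. Each of the other 3 was higher in every library than in only 1 of the classes. Btnl9 was higher than in Vwf-positive ECs in 15 of 15 libraries and than in arterial-type ECs in 7. The water channel Aqp1 and Meox2 were higher than in arterial-type ECs in 15 of 15, and than in Vwf-positive ECs in 10 and 13. These levels describe classes cut from the same counts and carry no test.

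Further genes described the class. Against Vwf-positive ECs the chemokine Cxcl9 stood at 348 ± 96.8 against 67.2 ± 20.3 CPM, the interferon-induced antiviral gene Rsad2 at 404 ± 84.5 against 89.0 ± 29.9, the adenosine receptor Adora2a at 98.0 ± 21.5 against 17.3 ± 7.84 and inducible nitric oxide synthase Nos2 at 54.3 ± 7.75 against 9.42 ± 2.88, each higher in 15 of 15 libraries. Cxcl9 had a UMI in 48.2% of capillary cells, against 2.09% of Ptprc-positive leukocytes, which had a median of 7802 UMIs per cell to the capillary 3801. Against arterial-type ECs the apelin receptor Aplnr stood at 85.9 ± 36.6 against 1.23 ± 1.17 CPM. Lowest against Vwf-positive ECs was Cytl1, a secreted protein, at 8.67 ± 7.40 against 1259 ± 413 CPM, and lowest against arterial-type ECs was the protease Pcsk5 at 3.31 ± 2.08 against 153 ± 44.5 CPM. The gap-junction genes Gja5 (1.95 ± 1.01 against 68.5 ± 20.4 CPM) and Gja4 (9.92 ± 3.75 against 195 ± 60.6 CPM), both typical of arteries, were also lower. Hemoglobin RNA filled 4 of the 15 highest ratios to arterial-type ECs, and the hemoglobin genes are near-identical copies whose reads may be split between them. Hbb-bs stood at 3432 ± 2009 against 84.0 ± 58.4 CPM, while a UMI of it was present in 35.9% of capillary, 33.4% of arterial-type and 35.4% of Vwf-positive cells.

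Markers of other cells were present in capillary cells. The summed level of 8 fibroblast markers in capillary cells had a median of 1.32% of that in fibroblast-type cells (0.598 to 4.10% over the libraries). For 7 myeloid markers the median was 2.22% of their level in Ptprc-positive cells (0.789 to 11.6%), and for 7 B and T cell markers it was 1.53% (0.664 to 12.1%). The immunoglobulin gene Igkc had a UMI in 38.6% of capillary and 69.3% of Ptprc-positive cells, and 5 hemoglobin and erythroid markers summed to 267 to 13882 CPM. Dcn, a fibroblast matrix gene, had a UMI in 53.9% of capillary cells against 98.4% of fibroblast-type cells. Of 6 kidney tubule markers, 5 were at 0 in every library.

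The capillary share of all cells was higher in old than in young vehicle mice. Capillary cells were 17.9, 16.8, 22.9 and 15.998% of all cells in the 4 Y VEH libraries and 30.8, 23.2 and 34.3% in the 3 O VEH libraries, so that the groups did not overlap. The means, 18.4 ± 3.11 (SD, n = 4) and 29.4 ± 5.69% (n = 3), differed by 11.03 percentage points (two-sided exact permutation test, p = 0.0286, the smallest that 35 splits allow, and 0.0857 after Benjamini-Hochberg adjustment over 6 contrasts). Over both treatments the 7 old libraries averaged 29.9 ± 5.49% and the 8 young 21.5 ± 5.77% (8.38 points, exact permutation p = 0.0151, adjusted p = 0.0857). O FIS, at 30.2 ± 6.18% (n = 4), differed from O VEH by 0.779 points (exact permutation p = 0.800), and Y FIS, at 24.6 ± 6.52%, from Y VEH by 6.18 points (exact permutation p = 0.200). O FIS and Y VEH differed by 11.8 points (exact permutation p = 0.0571, adjusted p = 0.114). Leaving out any 1 library of Y VEH or O VEH leaves too few splits for a p below 0.0667.

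**Figure D2:**
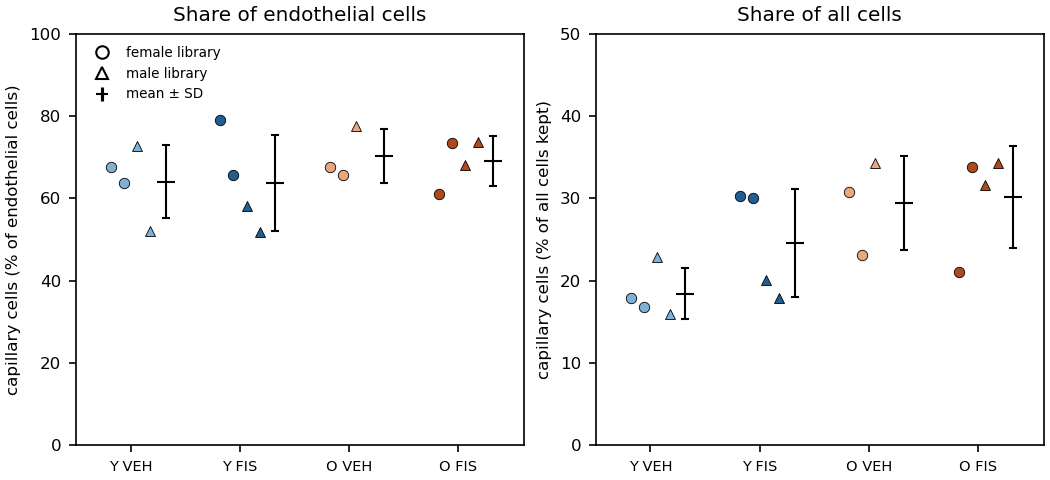
Share of capillary cells among ECs and among all cells kept (percent) in the 15 libraries by group, circles female and triangles male, with the mean ± SD. Among all cells, every O VEH library lies above every Y VEH library, and among ECs the groups overlap.

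Among ECs alone the capillary share averaged 64.0 ± 8.84% in Y VEH and 63.7 ± 11.7% in Y FIS, against 70.3 ± 6.46% in O VEH and 69.1 ± 5.99% in O FIS. O VEH and Y VEH overlapped and differed by 6.25 points (exact permutation p = 0.371). The share of a digest depends on how many other cells it yielded, and the number of capillary cells per aorta was not measured. Median genes per capillary cell were lower in O FIS (1751 to 1891) than in O VEH (1899 to 1946.5), without overlap, by 99.8 genes (exact permutation p = 0.0571, adjusted p = 0.343).

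Age moved few capillary RNAs past the study's thresholds. The study used these with Seurat's Wilcoxon rank sum test, so its gene counts are not comparable with those below. RNAs were called differentially abundant (DARs) at an adjusted p under 0.05 in edgeR's quasi-likelihood test with Benjamini-Hochberg adjustment on summed UMIs per library, with a log2 fold change beyond 0.25 and detection in over 10% of capillary cells on either side. Of 14168 genes tested, 13 were DARs between O VEH and Y VEH (0.0918% of genes), of which 5 rose and 8 fell with age. DESeq2 gave 39, with 21 higher and 18 lower, and scaling by total counts gave 8, with 2 higher and 6 lower. At unadjusted p under 0.05, 4.27% of genes were higher and 3.39% lower, and in 7.64% of genes the 2 groups did not overlap. Over both treatments, 7 old against 8 young libraries, 84 genes were DARs (0.593%), with 53 that rose (0.374%) and 31 that fell (0.219%), and DESeq2 gave 147. At unadjusted p under 0.05, 6.44% of genes were higher and 6.08% lower in old mice, and in 0.515% all old libraries lay to 1 side of all young ones. The median log2 fold change over all genes was within 0.01 of 0 in every contrast. Levels below are CPM scaled by edgeR's TMM factors. Levels in other classes of cells, and capillary levels compared with them, are CPM scaled by total counts. A gene's capillary value can therefore differ slightly between passages.

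Robo2, a receptor for the Slit guidance proteins, had the largest rise with age over both treatments among DARs whose libraries did not overlap. Its level was 27.3, 10.8, 6.33 and 20.02 CPM in Y VEH, 13.8, 22.4, 14.6 and 22.9 CPM in Y FIS, 68.7, 33.6 and 43.4 CPM in O VEH and 59.8, 58.1, 50.8 and 41.4 CPM in O FIS. Every old library was thus above every young one, whichever treatment it had. The log2 fold change was 1.54 ± 0.23 (SE, edgeR adjusted p = 0.00307), and cells with a UMI went from 3.56% in young to 10.3% in old mice. The Slit3 ligand, named after its value was seen, rose in the same cells from 121 ± 48.0 to 241 ± 62.9 CPM (log2 fold change 0.99 ± 0.22, adjusted p = 0.0336). Without O FIS F2 the detection of Robo2 fell to 10% or less, which ended the call.

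Plscr1, Plscr2 and Plscr4, phospholipid scramblases that move phosphatidylserine between membrane leaflets, were each DARs that rose with age. Plscr2 ran from 42.3 to 64.1 CPM in young libraries (median 55.9) and from 79.3 to 141 CPM in old ones (median 99.1). Plscr1, which interferon induces, ran from 20.4 to 29.9 (median 24.0) and from 32.2 to 68.7 CPM (median 44.7). Neither pair of ranges overlapped. The log2 fold changes were 0.92 ± 0.11 for Plscr2 (adjusted p = 0.000705) and 0.92 ± 0.12 for Plscr1 (adjusted p = 0.0011). Plscr4 rose by less, from 153 ± 12.5 to 185 ± 5.52 CPM (log2 fold change 0.28 ± 0.059, adjusted p = 0.0252). The 3 genes are neighbors on chromosome 9 (GRCm39, Plscr1 at 92131759 to 92154621, Plscr2 at 92154974 to 92180106 and Plscr4 at 92339414 to 92375563), and similar copies can share reads. The calls of Plscr1 and Plscr2 held without any single library, and that of Plscr4 was lost on leaving out any 1 of 6.

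Neo1, Gstm2, Fez1, Uba7 and Mfge8 also rose with age over both treatments without overlap between old and young libraries in TMM-scaled levels. Scaled by total counts, the libraries stayed apart for Gstm2 and overlapped for Neo1, Fez1, Uba7 and Mfge8. Neo1, the netrin and RGM receptor neogenin, went from 22.96 ± 2.65 to 32.3 ± 3.02 CPM (log2 fold change 0.50 ± 0.087, adjusted p = 0.00814). Gstm2, a glutathione S-transferase, went from 59.2 ± 7.25 to 89.4 ± 15.5 CPM (0.57 ± 0.080, adjusted p = 0.00177), and Fez1, a kinesin adaptor, from 25.1 ± 4.63 to 41.5 ± 7.20 CPM (0.71 ± 0.13, adjusted p = 0.0132). Uba7, which activates the ubiquitin-like Isg15, and Mfge8, which bridges phosphatidylserine to integrins, rose by 0.32 and 0.29 on the log2 scale. The call of Mfge8 was lost on leaving out any 1 of 14 libraries and that of Uba7 on leaving out any 1 of 3. Between O VEH and Y VEH the 5 RNAs that rose were Gm4951, an interferon-inducible GTPase (8.66 ± 2.01 to 41.9 ± 12.9 CPM), the unnamed gene ENSMUSG00000095041 (52.3 ± 10.2 to 108 ± 15.1), the transcription factor Zfhx3 (23.3 ± 4.23 to 45.9 ± 10.2), the ether lipid enzyme Agmo (87.9 ± 14.7 to 148 ± 27.4) and Trim30d (18.5 ± 1.46 to 30.9 ± 1.75). Of these calls only that of ENSMUSG00000095041 held without any single library. Gm4951 was lost without O VEH F1 or O VEH F2, and the other 3 on leaving out any 1 of 5 to 10 libraries. With cells thinned to 1500 UMIs, 7 of the 13 calls between O VEH and Y VEH and 15 of the 32 named calls over both treatments were lost. Of those 15, 11 kept an adjusted p under 0.05 and were lost through the detection limit, Robo2, Plscr1, Neo1, Fez1 and Uba7 among them. Mfge8 was lost by its p.

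**Figure D3:**
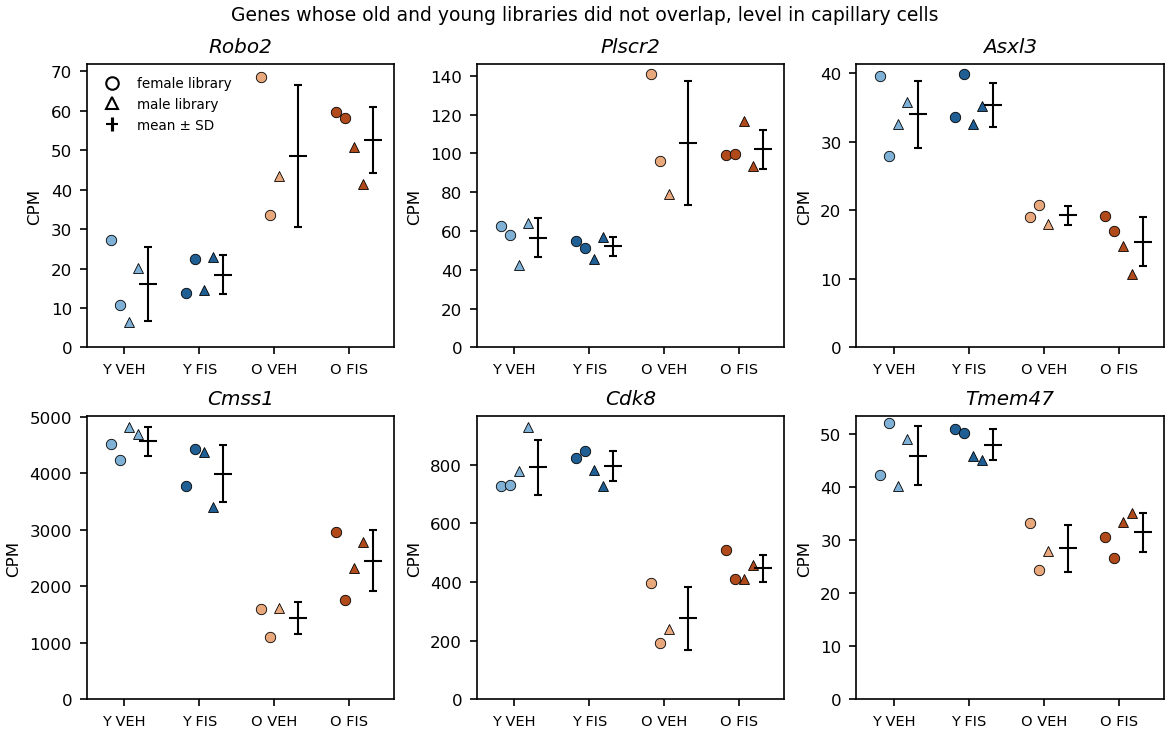
Levels of Robo2, Plscr2, Asxl3, Cmss1, Cdk8 and Tmem47 in capillary cells (CPM, linear axes from 0) in the 15 libraries by group, circles female and triangles male, with the mean ± SD. Old libraries of both treatments lie above young ones for Robo2 and Plscr2 and below them for the other 4 genes.

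Asxl3, a chromatin regulator of the Polycomb system, was lower in old mice under both treatments. It stood at 39.5, 27.9, 32.6 and 35.8 CPM in Y VEH, 33.6, 39.8, 32.6 and 35.3 CPM in Y FIS, 19.1, 20.8 and 18.02 CPM in O VEH and 19.2, 17.0, 14.8 and 10.7 CPM in O FIS. No old library reached the lowest young one. It fell by 1.03 on the log2 scale (SE 0.10, adjusted p = 9.96e-05) over both treatments, and by 0.85 between O VEH and Y VEH (adjusted p = 0.0385). Detection was 10.5% in young cells, so that the call over both treatments was lost without Y FIS F2 through the detection limit, and that between the vehicle groups on leaving out any 1 of 8 libraries. Among lysosomal genes, named after their values were seen, Lipa, the acid lipase, rose by 0.47 (adjusted p = 0.000992) and Ctsd, cathepsin D, by 0.30 (adjusted p = 0.0375).

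Tmem47, a junction protein, fell from 47.0 ± 4.27 to 30.2 ± 3.996 CPM (log2 fold change -0.65 ± 0.087, adjusted p = 0.00114). Atp1b3, a subunit of the sodium pump, fell from 101 ± 5.14 to 81.6 ± 6.45 CPM (adjusted p = 0.00713). The call of Atp1b3 was lost with cells thinned to 1500 UMIs (adjusted p = 0.0623) and without cells holding genes of other lineages (adjusted p = 0.105). That of Tmem47 was lost with thinned cells through the detection limit. Septin9 and Smap2 fell by 0.28 and 0.27 on the log2 scale, and their calls were lost on leaving out any 1 of 9 and of 11 libraries. Hes1, the transcription factor that Notch induces, fell from 240 ± 46.2 to 166 ± 38.4 CPM with overlapping libraries (log2 fold change -0.56 ± 0.12, adjusted p = 0.0367), a call lost on leaving out any 1 of 11 libraries. It was the 1 DAR of 17 tested genes of Notch signaling and arteriovenous identity, where 0.593% of all genes were DARs and 0.219% were lower.

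Cmss1, Cdk8, Camk1d and Lars2 also fell with age. Cmss1 stood at 4522, 4228, 4826 and 4702 CPM in Y VEH and at 1595, 1108 and 1616 CPM in O VEH. In O FIS it stood at 2953, 1754, 2327 and 2780 CPM, between the O VEH and the young libraries. The log2 fold changes between O VEH and Y VEH were -1.65 ± 0.20 for Cmss1 (adjusted p = 0.00195), -1.53 ± 0.20 for Cdk8 (adjusted p = 0.0049), -1.31 ± 0.19 for Camk1d and -1.06 ± 0.15 for Lars2 (both adjusted p = 0.00889). The calls of Cmss1 and Cdk8 held without any single library, that of Camk1d was lost without O VEH F2 (adjusted p = 0.0530), and that of Lars2 without O VEH F2 or O VEH M1. All 4 RNAs were also lower in old mice in arterial-type and Vwf-positive ECs, in Ptprc-positive cells and in fibroblast-type cells. Cmss1 was at 1198 against 2683 CPM in Ptprc-positive cells. These 4 and 2 more RNAs were listed because earlier results of these libraries showed them moving in many cell types. 3 long noncoding or unnamed RNAs moved as well, with Gm48099 falling by 1.12 (adjusted p = 0.000984) and Gm19951 by 1.29 (adjusted p = 0.00253) over both treatments and ENSMUSG00000095041 rising by 0.85 (adjusted p = 9.96e-05). On average each moved in the same direction in arterial-type and Vwf-positive ECs, in Ptprc-positive cells and in fibroblast-type cells.

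Of 17 genes of MHC class I presentation, the pathway that loads cytosolic peptides onto surface molecules, 5 rose with age over both treatments and none fell, where 0.374% of all genes rose. They were H2-K1, H2-Q7, H2-Q6, H2-Q4 and H2-T22, all heavy chains on chromosome 17. At unadjusted p under 0.05, 14 of the 17 were higher (6.44% of all genes), and the median log2 fold change of the list was 0.31. Those 14 included the light chain B2m, the peptide transporter genes Tap1 and Tap2, the immunoproteasome genes Psmb8 and Psmb9 and the transactivator Nlrc5, none of which reached the adjusted threshold. Without cells holding genes of other lineages the calls of H2-K1 and H2-T22 ended (adjusted p = 0.0803 and 0.0766) at log2 fold changes of 0.55 and 0.53, and those of the other three held.

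H2-Q7 ran from 128 to 319 CPM in young libraries (median 186) and from 269 to 615 CPM in old ones (median 337). The ranges overlapped through Y FIS M2 and O FIS F1. The log2 fold change was 1.01 ± 0.18 (adjusted p = 0.00751), close to that of H2-Q6 at 0.95 ± 0.16 (adjusted p = 0.00700). H2-K1, a classical heavy chain and by far the most abundant of the 5, ran from 1158 to 1683 CPM in young (median 1368) and from 1527 to 2540 CPM in old libraries (median 2033). Its log2 fold change was 0.54 ± 0.12 (adjusted p = 0.0411). H2-Q4 rose by 0.58 ± 0.11 (adjusted p = 0.0166) and H2-T22 by 0.47 ± 0.10 (adjusted p = 0.0289). The calls of H2-Q4, H2-Q6 and H2-Q7 held without any single library. Those of H2-K1 and H2-T22 were lost on leaving out any 1 of 10 and of 6 libraries (highest adjusted p = 0.0965 and 0.0762). The H2-Q genes are close copies, and their reads may be split among them. All 5 genes were also higher on average in old mice in arterial-type and Vwf-positive ECs, in Ptprc-positive cells and in fibroblast-type cells. H2-K1 stood at 2012 against 1325 CPM (old against young) in Vwf-positive ECs and 802 against 433 CPM in fibroblast-type cells. For none of the 5 did the age effect differ from that in the other EC classes at the adjusted threshold.

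**Figure D4:**
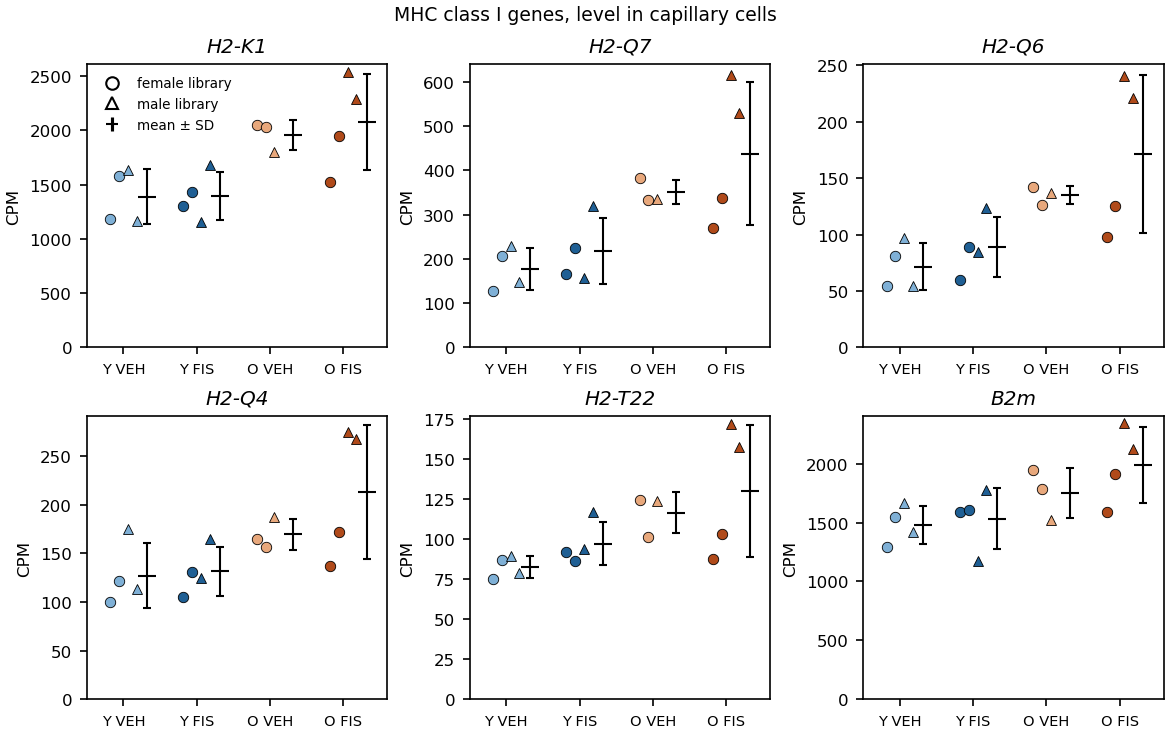
Levels of H2-K1, H2-Q7, H2-Q6, H2-Q4, H2-T22 and B2m in capillary cells (CPM, linear axes from 0) in the 15 libraries by group, circles female and triangles male, with the mean ± SD. H2-K1 averages 1961 CPM in O VEH and 2077 in O FIS against 1390 in Y VEH and 1394 in Y FIS.

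The old groups were close to each other in this list. H2-K1 averaged 1390 ± 252 CPM in Y VEH and 1394 ± 223 in Y FIS, against 1961 ± 140 in O VEH and 2077 ± 439 in O FIS. None of the 17 genes passed unadjusted p under 0.05 between O FIS and O VEH, and their median log2 fold change there was 0.10. Of all genes 1.24% were higher and 1.3% lower at that threshold, so that none in 17 says little about the list. Between O FIS and Y VEH, 13 of 17 were higher at that threshold (median 0.42, with 4.31% of all genes higher), and between O VEH and Y VEH 8 (median 0.28, with 4.27% of all genes higher). H2-M3, a heavy chain outside the list named after its value was seen, rose by 0.41 (adjusted p = 0.0252).

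Some interferon-induced genes stood higher with age in vehicle mice and lower with fisetin in old mice at an unadjusted p under 0.05, and all but 1 of these differences missed the adjusted threshold. Of 38 tested, 17 stood higher with age among vehicle mice at unadjusted p under 0.05 and none lower, with a median log2 fold change of 0.30, where 4.27% of all genes were higher and 3.39% lower. Gm4951 was the 1 DAR. In O FIS 13 of the 38 were lower than in O VEH at that threshold and none higher (median -0.22, with 37 of 38 below 0), where 1.24% of all genes were higher and 1.3% lower. In Y FIS 9 were higher than in Y VEH and none lower (median 0.17, with 2.55% of all genes higher and 2.51% lower). None of these fisetin differences passed the adjusted threshold. The test of whether fisetin acted differently in old and young mice gave 19 of 38 lower and none higher at unadjusted p under 0.05 (median -0.40), where 1.55% of all genes were higher and 2.1% lower, and 0% of genes were DARs. The fisetin and age contrasts share the O VEH or Y VEH libraries, so that a high or low vehicle group alone can set opposite signs in them. Over both treatments, 9 interferon genes were higher and 4 lower with age (6.44 and 6.08% of all genes), with a median of 0.05 and no DAR.

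Oasl2, an antiviral oligoadenylate synthetase-like gene, had the smallest interaction p. It stood at 32.1, 24.9, 29.5 and 28.7 CPM in Y VEH, 48.0, 40.3, 48.3 and 44.1 CPM in Y FIS, 39.4, 36.6 and 41.2 CPM in O VEH and 35.1, 29.1, 36.1 and 28.4 CPM in O FIS. Y FIS lay wholly above Y VEH and O FIS wholly below O VEH, as did 2.19 and 3.64% of all genes in either direction. The log2 fold changes were 0.65 ± 0.11 in young mice (edgeR adjusted p = 0.127), -0.29 ± 0.11 in old mice (unadjusted p = 0.02) and -0.94 ± 0.15 for the interaction (adjusted p = 0.292). Ifit1 and Igtp, chosen after their values were seen, were both lower with fisetin in old mice (unadjusted p = 0.0276 and 0.0426). The antiviral gene Ifit1 averaged 56.6 in Y VEH and 74.1 in Y FIS, against 70.8 in O VEH and 52.3 CPM in O FIS, and the GTPase Igtp 41.9, 48.1, 73.9 and 54.6 CPM. Ly6a and Ly6e, with the highest levels of the list, averaged 2303 and 2017 CPM in O VEH against 1969 and 1828 in Y VEH, at unadjusted p = 0.261 and 0.247. Zbp1, a sensor of nucleic acid, passed the adjusted p over both treatments (log2 fold change 1.11 ± 0.24, adjusted p = 0.0321) at 4.40 against 8.75 CPM, but in under 10% of cells.

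The letters that many interferon-induced genes carry before their start are shown because most members of this list had the same sign in the fisetin contrasts, the interaction and O VEH against Y VEH (32, 37 or 36 of 38), though not in the other 3 contrasts. The interferon-stimulated response element core, GAAA repeated after any 2 bases, was searched on both strands in the 250 bases before the start of each gene (RefSeq, GRCm38.p6, a build older than that of the counts). It was present in 15 of the 25 list promoters found (60%), in 3 of 15 promoters of the MHC class I list (20%, B2m, H2-T23 and H2-T22) and in 821 of 27025 promoters in all (3.04%). Capitals mark the match, on the strand that reads toward the gene, as its reverse complement in Rsad2 and H2-T22 and as 2 overlapping matches in Bst2. The windows are chr12:26456453-26456702, chr8:71537473-71537722 and chr17:36042743-36042992, all on the minus strand, and the matches begin 120, 130 and 191 bases before the start.
Rsad2: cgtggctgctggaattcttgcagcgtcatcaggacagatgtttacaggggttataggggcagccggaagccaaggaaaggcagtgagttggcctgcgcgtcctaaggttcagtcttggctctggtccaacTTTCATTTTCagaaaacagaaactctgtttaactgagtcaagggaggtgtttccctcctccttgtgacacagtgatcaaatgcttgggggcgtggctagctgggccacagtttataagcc
Bst2: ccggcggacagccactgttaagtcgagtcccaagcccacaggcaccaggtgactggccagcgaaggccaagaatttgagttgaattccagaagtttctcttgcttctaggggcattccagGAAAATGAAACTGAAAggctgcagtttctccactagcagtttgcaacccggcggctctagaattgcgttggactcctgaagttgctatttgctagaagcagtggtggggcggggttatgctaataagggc
H2-T22: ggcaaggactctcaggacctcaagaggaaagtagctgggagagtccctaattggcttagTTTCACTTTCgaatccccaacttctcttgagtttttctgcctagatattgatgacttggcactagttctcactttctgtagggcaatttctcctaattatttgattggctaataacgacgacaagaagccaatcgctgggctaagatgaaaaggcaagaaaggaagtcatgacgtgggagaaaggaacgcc
A match is a description of these letters. Rsad2 averaged 385 in Y VEH and 368 in Y FIS, against 495 in O VEH and 391 CPM in O FIS, Bst2 707, 699, 679 and 629 CPM, and H2-T22 82.4, 97.1, 117 and 130 CPM, so that genes with the same letters did not share 1 order of groups.

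Clock genes spread widely between libraries, most of all in old male mice given fisetin. Dbp, a transcription factor driven directly by the clock, stood at 128 and 172 CPM in O FIS M1 and O FIS M2. It stood at 4.72 and 8.71 CPM in O FIS F1 and O FIS F2, at 38.6, 9.001 and 21.8 CPM in O VEH and at 5.42 to 24.3 CPM in the 8 young libraries. Arntl, the activator of the clock, ran the other way, at 11.96 and 8.65 CPM in the same 2 male libraries and at 30.6 to 67.1 CPM in the 13 others. The 2 libraries thus stood apart together in Dbp, Tef, Nr1d1 and Arntl. The time of day at which the mice were killed was not given in the sources used here, and whether it differed between groups was not tested.

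**Figure D5:**
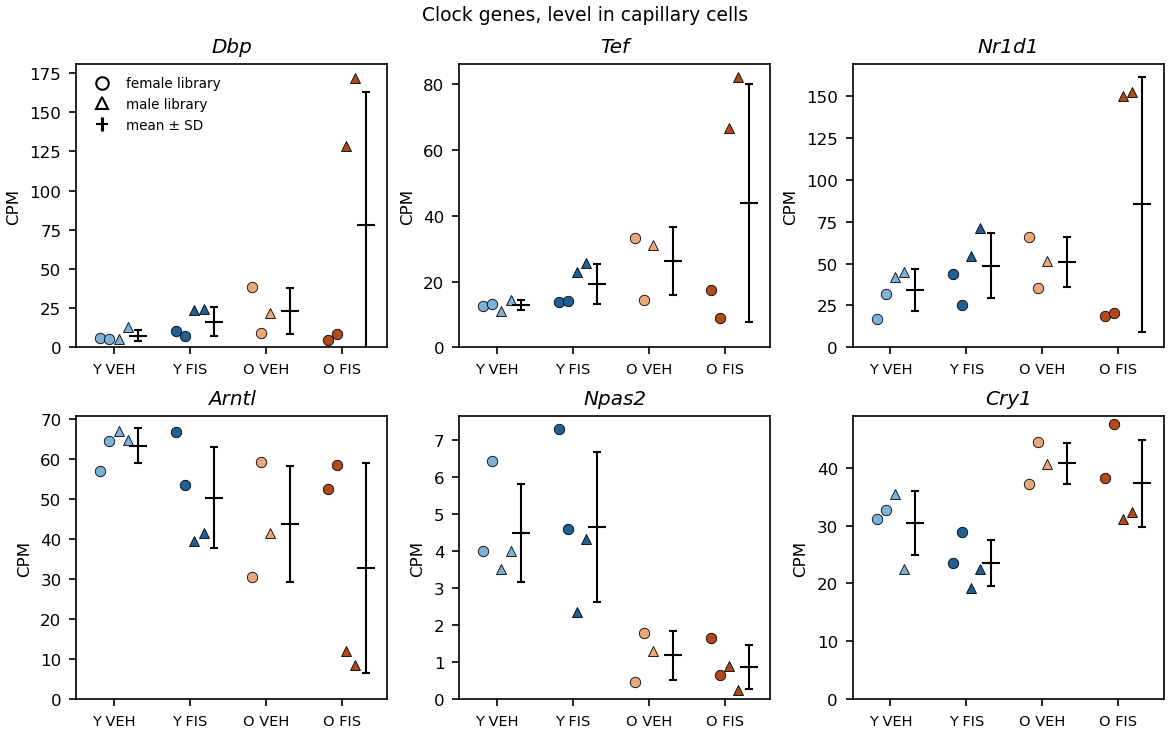
Levels of Dbp, Tef, Nr1d1, Arntl, Npas2 and Cry1 in capillary cells (CPM, linear axes from 0) in the 15 libraries by group, circles female and triangles male, with the mean ± SD. The 2 male O FIS libraries lie far above the rest for Dbp, Tef and Nr1d1 and below them for Arntl.

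Of 14 clock genes tested, 10 were higher and 2 lower with age over both treatments at unadjusted p under 0.05 (median log2 fold change 0.63, with 6.44% of all genes higher and 6.08% lower), and Cry1, a repressor of the clock, was the 1 DAR. Between O VEH and Y VEH 5 were higher and 1 lower (median 0.66, with 4.27% of all genes higher and 3.39% lower). The 2 male O FIS libraries are in neither of these groups. They still enter this test through the sex term and the spread that all libraries share. Cry1 ran from 19.2 to 35.4 CPM in young (median 26.2) and from 31.2 to 47.5 CPM in old libraries (median 38.2), with some overlap. The log2 fold change was 0.52 ± 0.10 (adjusted p = 0.0171), and the call was lost without O VEH M1 (adjusted p = 0.0660). Npas2, a partner of Arntl named after its value was seen, stood at 2.36 to 7.30 CPM in young and 0.247 to 1.78 CPM in old libraries without overlap. It passed the adjusted p (log2 fold change -2.18 ± 0.32, adjusted p = 0.00222) but had a UMI in only 0.832% of cells, so that it was no DAR. Between females and males, 8 clock genes were lower in females and 2 higher at unadjusted p under 0.05, where 5.58% of all genes were higher and 5.2% lower. Sex, age and fisetin meet in the 2 O FIS male libraries.
The E-box CACGTG, the letters that the Arntl complex binds, was searched on both strands and was present in 5 of 13 clock promoters found (38.5%) and in 1634 of 27025 in all (6.05%). The D-box TTATGTAA was present in 1 of 13 (7.69%), against 0.862% of all promoters. Cry1 is printed as the clock gene that was a DAR (chr10:85185055-85185304, GRCm38.p6, minus strand), with the E-box in capitals 60 bases before the start.
Cry1: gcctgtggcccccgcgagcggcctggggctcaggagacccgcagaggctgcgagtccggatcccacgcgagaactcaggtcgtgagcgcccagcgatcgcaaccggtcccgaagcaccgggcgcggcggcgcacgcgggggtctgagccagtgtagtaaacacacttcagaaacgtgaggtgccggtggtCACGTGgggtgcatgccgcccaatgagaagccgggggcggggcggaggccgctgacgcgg

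By edgeR with the filter on low counts, fisetin moved no capillary RNA past the DAR thresholds. Between O FIS and O VEH 0 of 14168 genes were DARs by edgeR (0%), with 359 at unadjusted p under 0.05. Between Y FIS and Y VEH it was 0 by edgeR (0%), with 717 at unadjusted p under 0.05, and DESeq2 gave 0 in old and 3 in young mice. For the interaction edgeR gave 0, with 517 at unadjusted p under 0.05, and DESeq2 gave 1. Without the filter on low counts DARs numbered 12 in old mice, 51 in young mice and 25 for the interaction, and with the replicate block 1 in young mice and 1 for the interaction. In old mice the 3 smallest p belonged to the mast cell proteases Cma1 (4.91 ± 4.71 CPM in O VEH, 0.248 ± 0.244 in O FIS) and Mcpt4 (3.66 ± 2.23 and 0.366 ± 0.425) and to the immediate-early gene Nr4a2. Nr4a2 stood at 10.2, 10.98 and 13.2 CPM in O VEH and at 15.96, 17.2, 16.002 and 17.2 CPM in O FIS, without overlap (log2 fold change 0.50 ± 0.12, adjusted p = 1). In young mice they belonged to Thsd7b (0.920 against 3.38 CPM, adjusted p = 0.116), Oasl2 and the noncoding Gm15614 (35.5 against 49.7 CPM, adjusted p = 0.127).

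Immediate-early and heat shock genes, which rise quickly under stress, were mostly higher in old mice given fisetin, short of the adjusted threshold. Of 22 tested, 7 were higher in O FIS than in O VEH at unadjusted p under 0.05 and none lower, with a median log2 fold change of 0.36 and 20 of 22 above 0 (1.24% of all genes were higher and 1.3% lower). By sign O VEH was low in this list, with 20 of 22 below 0 against Y VEH (median -0.34, against -0.0017 over all genes) but no DAR. O FIS against Y VEH had a median of 0.05 with 1 of 22 higher and none lower at unadjusted p under 0.05. The 7 higher in O FIS than in O VEH were Ccn1, Jun, Zfp36, Ier2, Socs3, Dusp1 and Ier3. Jun averaged 324 ± 29.8 CPM in Y VEH and 364 ± 97.9 in Y FIS, against 247 ± 20.8 in O VEH and 331 ± 21.4 in O FIS. Ier3, a stress and survival gene, was the 1 DAR with age over both treatments. It ran from 34.2 to 84.4 CPM in young (median 44.8) and from 59.0 to 332 CPM in old libraries (median 86.9, log2 fold change 1.08 ± 0.22, adjusted p = 0.0203). Its highest values were the 162 and 332 CPM of the female O FIS libraries, and the call was lost without O VEH M1 (adjusted p = 0.0603). Such genes also respond to tissue digestion, and its part in these values was not tested.

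O FIS against Y VEH gave 4 DARs (0.0282%), where 4.31% of all genes were higher and 3.65% lower at unadjusted p under 0.05. Agmo and ENSMUSG00000095041 rose (log2 fold change 0.86 and 0.88), and Asxl3 and Gm48099 fell by 1.16 and 1.17. The counts of 13 for O VEH and 4 for O FIS rest on the same Y VEH libraries, and their order turned by DESeq2, which gave 39 and 43. The direct test of O FIS against O VEH gave 0 DARs by edgeR, with 359 genes at unadjusted p under 0.05 and 0 DARs by DESeq2. Without O VEH F1, O VEH F2 or O FIS F1 the number for O FIS against Y VEH was 9, 10 or 11, and without Y VEH M1, O FIS M1 or O FIS M2 it was 2. Between O VEH and Y VEH it was 4 without O VEH F2 and 8 without O FIS M1. O FIS M1 is in neither of these groups but enters the sex term and the 1 estimate of the spread that all libraries share. Over both treatments it was 54 without O VEH F2 or O VEH M1 and 51 without O FIS M2.

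Senescence genes and secreted factors (SASP, the senescence-associated secretory phenotype) were mostly low in capillary cells. Timp4, which the study counts among these factors, was a marker of the rule and was left out of the tests. Of 22 tested, 9 were higher and 1 lower with age over both treatments at unadjusted p under 0.05 (median log2 fold change 0.50, with 6.44% of all genes higher and 6.08% lower), and S100a9 was the 1 DAR. The 9 were Il1b, S100a9, Cdkn2a, Cdkn2b, Gdf15, Icam1, Ccl2, Ccl7 and Ccl8, and the lower 1 was the lamin Lmnb1. Between O VEH and Y VEH 3 were higher (S100a9, Cdkn2b and Ccl8), where 4.27% of all genes were. Between O FIS and O VEH none differed in either direction at that threshold (median -0.02). Of all genes 1.24% were higher and 1.3% lower there, so that none in 22 says little about the list.

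Cxcl12, the chemokine that the study followed, was abundant and had a UMI in 87.4% of capillary cells. The share was 90.4% in arterial-type, 60.3% in Vwf-positive, 71.8% in fibroblast-type and 15.6% in Ptprc-positive cells. In capillary cells Cxcl12 averaged 1451 ± 322 CPM in Y VEH and 1216 ± 91.1 in Y FIS. In O VEH and O FIS it averaged 1692 ± 500 and 1593 ± 319 CPM, with overlap of all groups. The log2 fold change was 0.14 ± 0.19 between O VEH and Y VEH (unadjusted p = 0.475), -0.03 ± 0.19 between O FIS and O VEH (unadjusted p = 0.86) and 0.26 ± 0.13 with age over both treatments (unadjusted p = 0.0652). Its receptors were lower, with Ackr3 at 42.7, 43.9, 36.4 and 36.5 CPM in Y VEH, Y FIS, O VEH and O FIS and Cxcr4 at 8.09, 9.31, 10.8 and 8.99 CPM. Neither passed unadjusted p under 0.05 in any contrast. The study's Cxcl12 result was for a small subcluster of senescent ECs, tested by Seurat's Wilcoxon rank sum test, and for plasma protein. Capillary cells summed per library are a different set of cells, so these values do not repeat that test.

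Cyclin-dependent kinase inhibitors, which hold senescent cells in arrest, differed in level. Cdkn1a averaged 589 ± 326 CPM in Y VEH and 328 ± 170 in Y FIS, against 465.6 ± 283 in O VEH and 392 ± 380 in O FIS, with spreads as large as the differences. Cdkn2a averaged 0.927, 0.626, 1.82 and 2.05 CPM and Cdkn2b 1.78, 1.94, 3.28 and 3.18 CPM in the same order, with unadjusted p = 0.00276 and 0.00104 for age over both treatments. Trp53 (45.9, 47.6, 47.3 and 47.7 CPM) and its inhibitor Mdm2 (48.0, 47.2, 47.9 and 49.3 CPM) differed by less than their spread between libraries.

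The chemokines and cytokines below, unlike Cxcl12 and Cxcl9, were low. Ccl8 stood at 2.41 to 2.95 CPM in Y VEH, 0.225 to 1.30 in Y FIS, 10.0 to 19.6 in O VEH and 3.97 to 18.5 CPM in O FIS, so that old and young libraries did not overlap. It passed the adjusted p over both treatments (log2 fold change 2.81 ± 0.33, adjusted p = 0.000548) but was detected in 2.05% of cells, under the DAR limit. Ccl2 averaged 1.96, 1.86, 4.91 and 2.94 CPM in Y VEH, Y FIS, O VEH and O FIS, Ccl7 0.897, 0.495, 2.05 and 1.06, Cxcl1 2.97, 3.62, 4.49 and 3.84, Cxcl2 6.45, 1.78, 3.63 and 5.31 and Il1b 1.20, 0.360, 1.54 and 2.54 CPM. Icam1, the leukocyte adhesion molecule, averaged 34.2, 27.5, 47.2 and 48.7 CPM (unadjusted p = 0.00336 for age over both treatments).

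Growth factors, binding proteins and proteases of the list showed no DAR. In the order Y VEH, Y FIS, O VEH and O FIS, Igfbp5 averaged 34.3, 36.9, 66.5 and 28.4 CPM and Igfbp3 45.0, 50.4, 41.8 and 27.9 CPM. Serpine2 averaged 7.21, 10.3, 4.80 and 6.68 CPM, Mmp3 9.83, 9.29, 11.3 and 15.1, Gdf15 0.935, 0.502, 1.83 and 2.46 and Fgf1 3.75, 3.11, 5.84 and 4.12 CPM. Lmnb1, whose loss marks senescent cells, averaged 15.3, 16.3, 12.4 and 12.8 CPM.

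S100a9, a calcium-binding protein of neutrophils, rose with age in capillary cells beside the myeloid signal of the same libraries. It stood at 6.10, 3.21, 34.6 and 3.58 CPM in Y VEH, 3.23, 9.31, 0 and 0.464 CPM in Y FIS, 64.0, 137 and 33.5 CPM in O VEH and 55.8, 14.5, 29.0 and 39.2 CPM in O FIS. Old and young libraries overlapped only through Y VEH M1. The log2 fold change was 2.91 ± 0.59 (adjusted p = 0.0205), and the call was lost without O VEH F1 or O VEH F2 (highest adjusted p = 0.0511). In Ptprc-positive cells, which hold the neutrophils, S100a9 was at 5392 CPM in old and 961 CPM in young libraries. It was also higher on average in old arterial-type (31.3 against 6.31 CPM), Vwf-positive (26.9 against 6.30) and fibroblast-type cells (147 against 39.0). Its age effect in capillary cells did not pass as different from that in arterial-type or Vwf-positive ECs (edgeR adjusted p = 0.877 and 0.835). S100a9 had a UMI in 7.48% of capillary cells and in 8.45% of fibroblast-type cells. The 7 myeloid markers summed to 188 to 506 CPM in old and 6.34 to 1666 CPM in young capillary cells, with none at 0 in every library, and their part in the result was not tested.

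Fibroblast RNA was lower in old capillary cells. Col3a1 fell from 67.4 ± 21.8 to 26.0 ± 8.99 CPM (log2 fold change -1.35 ± 0.24, adjusted p = 0.00988) and Col1a2 from 58.3 ± 23.1 to 24.1 ± 12.6 CPM (-1.30 ± 0.27, adjusted p = 0.0224), the 2 DARs of 8 fibroblast markers. The 8 summed to 450 to 1645 CPM in young and 208 to 855 CPM in old libraries, and 6 of 8 were lower at unadjusted p under 0.05, where 6.08% of all genes were lower and 6.44% higher. Col3a1 also differed within fibroblast-type cells, at 2848 CPM in young and 1753 CPM in old mice. Among the 9853 capillary cells with fewer than 2 genes of each fibroblast, smooth muscle, pericyte, adipocyte, myeloid and lymphocyte list, 13 of the 32 named age DARs over both treatments were lost. Among them were Col3a1 (log2 fold change -0.97, adjusted p = 0.0253, lost through the detection limit), Col1a2 (-0.86, adjusted p = 0.163) and S100a9 (2.35, adjusted p = 0.0883), and also genes of none of these lists, such as Plscr4, Atp1b3 and Asxl3. Of the 6 adipocyte markers 4 were lower at unadjusted p under 0.05, with no DAR (29.1 to 150 CPM summed in young and 18.02 to 53.2 in old libraries). The 5 hemoglobin and erythroid markers had no DAR either, with 3 of 5 higher at that threshold and overlapping sums (267 to 7474 CPM in young and 2931 to 13882 in old libraries). The part of these other cells in the results was not tested.

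Sex-linked genes led the difference between females and males. Of 14168 genes 15 were DARs by edgeR between 8 female and 7 male libraries (0.106%), with 11 higher in females and 4 lower. DESeq2 gave 81, with 61 higher and 20 lower. Scaling by total counts gave 6 higher and 6 lower. Xist, which silences 1 X chromosome, stood at 308 ± 31.3 CPM in females and at 0 in every male library, and Uty, Eif2s3y and Ddx3y on the Y chromosome stood at 70.3 ± 6.06, 69.3 ± 8.72 and 80.7 ± 2.53 CPM in males and at 0.147 CPM or less on average in females. All libraries matched their labeled sex. Genes that escape X silencing were higher in females, by 0.75 for Kdm5c, 0.72 for Kdm6a, 0.69 for Eif2s3x and 0.50 for Ddx3x on the log2 scale. Autosomal DARs, named after their values were seen, included Acer2, a ceramidase (144 ± 42.1 CPM in females, 91.7 ± 26.4 in males, adjusted p = 0.0144), Dusp6, a phosphatase that ends ERK signaling (91.0 ± 21.4 and 61.0 ± 14.3, adjusted p = 0.0307), and Deptor, an inhibitor of mTOR, which was lower in females (35.3 ± 4.88 and 47.3 ± 6.34, adjusted p = 0.0307). The number of sex DARs was 24 or 25 without Y VEH F1 or O VEH F1 and 8 or 9 without O FIS M1, O FIS M2 or Y FIS M2.

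Whether age acted differently in capillary ECs than in other ECs was tested as a difference of age effects with each library as a block. Between O VEH and Y VEH 1 of 12984 genes differed between capillary and arterial-type ECs (0.0077%), and 1 of 14174 between capillary and Vwf-positive ECs (0.00706%). Over both treatments these were 24 (0.185%) and 70 (0.494%). Of all 84 DARs with age over both treatments, 3 differed from arterial-type ECs (Apba1, Fmo2 and Plscr1) and 9 from Vwf-positive ECs (Car8, Ephx1, Lurap1l, Mfge8, S100a6, Scd1, Sncg, Zfhx3 and Zfpm2).

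Of those named by the fixed rule, Plscr1 stood at 45.7 against 24.0 CPM (old against young) in capillary and at 128 against 114 CPM in arterial-type ECs (difference of log2 fold changes 0.75 ± 0.15, adjusted p = 0.0151). Against Vwf-positive ECs the difference for Plscr1 was 0.50 ± 0.13 and missed the threshold (adjusted p = 0.0997). Mfge8 differed from Vwf-positive ECs, with 146 against 119 CPM in capillary and 255 against 265 CPM in Vwf-positive ECs (0.38 ± 0.066, adjusted p = 0.0171). In arterial-type ECs Mfge8 stood at 211 against 180 CPM, a difference of 0.087 ± 0.12 that missed the threshold (adjusted p = 0.937). Zfhx3, which rose between O VEH and Y VEH in capillary cells, stood at 96.9 CPM in both groups of Vwf-positive ECs (1.03 ± 0.13, adjusted p = 0.00191). This call held without any single library but was lost with cells thinned to 1500 UMIs. Against arterial-type ECs the difference for Zfhx3 was 0.49 ± 0.25 and missed the threshold (adjusted p = 0.822). The call of Plscr1 was lost without O VEH F1 or Y VEH F2 (highest adjusted p = 0.0858) and that of Mfge8 without O VEH F1 (adjusted p = 0.0720). Robo2 stood at 50.7 against 17.5 CPM in capillary and 9.98 against 17.98 CPM in Vwf-positive ECs, a difference of 2.06 ± 0.53 that missed the threshold (adjusted p = 0.100). That of Asxl3 did so too, at 17.0 against 34.7 and 6.56 against 6.65 CPM (-1.07 ± 0.28, adjusted p = 0.101). None of the genes above differed from both other classes at the adjusted threshold, so for none was a particularity to capillary cells shown. Emp2, Cachd1 and Slfn2, named after their values were seen, differed from both over both treatments, though none was a DAR in capillary cells. The differences from arterial-type ECs were 1.52, -1.84 and 0.834 (adjusted p = 0.000618, 0.00663 and 0.0183). Those from Vwf-positive ECs were 1.35, -1.13 and 0.815 (adjusted p = 0.0395, 0.011 and 0.027). In capillary cells Emp2 and Cachd1 were low, at 12.96 against 5.54 and 3.46 against 8.83 CPM (old against young).

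Some interferon-induced genes had a smaller (or more negative) age effect in capillary than in Vwf-positive ECs. Of 38 tested, 6 had a smaller age effect over both treatments in capillary cells at adjusted p under 0.05 and none a larger one (0.31% of all genes had a smaller one), and 28 did at unadjusted p under 0.05 (6.26% of all genes). Against arterial-type ECs none of the 38 differed at the adjusted threshold, and 3 had a larger and 1 a smaller effect at unadjusted p under 0.05 (median 0.10, against -0.31 for Vwf-positive ECs). Some other lists shifted the same way. At unadjusted p under 0.05, 6 of 10 capillary markers outside the rule had a smaller age effect than in Vwf-positive ECs. So did 8 of 20 genes of fatty acid uptake and use and 6 of 7 of MHC class II presentation, and none had a larger one. Of 14 clock genes, 5 had a larger and 2 a smaller one. Against arterial-type ECs, 9 of 10 of those markers, 7 of 19 fatty acid genes and 1 of 7 MHC class II genes had a smaller one. None of them had a larger one, and 4 of 14 clock genes had a larger and 0 a smaller one. At the adjusted threshold 2 of the markers and 1 of the fatty acid genes were smaller there. Of all 12984 genes, 1016 differed from arterial-type ECs in either direction at unadjusted p under 0.05. The interferon genes with a smaller effect than in Vwf-positive ECs included Gbp7, Rtp4, Ifi44, Bst2 and Gbp6. Gbp7, an interferon-induced guanylate-binding protein, stood at 227 against 211 CPM (old against young) in capillary and 180 against 130 CPM in Vwf-positive ECs, so that the mean capillary level was higher at both ages (difference of log2 fold changes -0.33 ± 0.069, adjusted p = 0.0395). In capillary cells the old means of Rtp4 (93.1 against 98.8 CPM), Ifi44 (28.3 against 33.4 CPM) and Bst2 (648 against 699 CPM) lay below the young ones, and in Vwf-positive ECs they lay above them (66.1 against 54.0, 40.3 against 29.1 and 527 against 448 CPM). The MHC class II chaperone Cd74 stood at 110 against 112 CPM in capillary and 541 against 178 CPM in Vwf-positive ECs (-1.43 ± 0.29, adjusted p = 0.0342). The calls of Gbp7 and Cd74 were each lost on leaving out any 1 of 10 libraries (highest adjusted p = 0.133 and 0.126). The number of genes that differed between capillary and Vwf-positive ECs was 7 without O VEH F1, 17 without Y VEH M1, 24 without Y VEH F2, 25 without Y FIS M2, 30 without O FIS M2, 35 without Y FIS M1, 38 without O VEH F2 and 43 without O FIS M1. Against arterial-type ECs it was 15 without O VEH F1 and 43 without O VEH M1 over both treatments, and 17 without O VEH M1 between O VEH and Y VEH. Vwf-positive cells were a mixed class, and each library held 230 to 1249 of them and 55 to 152 arterial-type cells.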

How the data were processed

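UMI counts per gene and cell, deposited by the authors as raw matrices from a 10x 3' v3.1 kit, were analyzed in 15 libraries. The submitters' processing notes name Cell Ranger 8.0.1, Seurat 5.2.0 and GRCm39. Because 3' ends were counted, near-identical copies can share reads. Depth ran from 4793988 to 12042788 capillary UMIs per library. Capillary cells were summed per library, and 14168 genes, without the 22 genes used to choose cells, passed filterByExpr. They were fitted with edgeR 4.0.16 (R 4.3.3, TMM scaling, quasi-likelihood test, Benjamini-Hochberg adjustment) over all 4 groups with sex as covariate. The replicate numbers were not used as a block. Arterial-type ECs had no Vwf UMI, at least 3 of the 5 arterial markers and more of these than of capillary markers, and Vwf-positive ECs had at least 1 Vwf UMI. Ptprc-positive and fibroblast-type cells carried their own markers and at most 1 pan-endothelial gene. Age effects were compared between classes with the library as a block. Shares, UMIs and genes per cell were compared by two-sided exact permutation tests over libraries (Python 3.11.15, scipy 1.17.1, pandas 2.3.3). DESeq2 1.42.0, other scaling, filters and cell selections, the replicate block and each library left out were tried as alternatives. No doublet caller was run. The code was tested on simulated counts.

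The members and gene lists were chosen with earlier results of these data known. Named genes were the markers, up to 10 called genes in each direction with the largest changes whose groups did not overlap (or the 3 of smallest p where fewer than 3 were called), called members of each list up to 6 or otherwise its 2 highest, all tested SASP genes and CXCL12 receptors, and the 15 highest and 8 lowest class ratios among genes of at least 50 CPM. Some genes so selected are not reported here, and others are marked as named after their values were seen.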

Additional observations from a re-analysis of the deposited data

Results flagged for a closer look

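Of 174 groups of 4 libraries checked, 8 held a library far from the other 3, where chance marks about 1 in 20. Trim30d was at 32.1 CPM in O FIS F1 and at 23.3 to 24.5 CPM in the other O FIS libraries. In Y FIS, Mfge8 was at 95.9 CPM in Y FIS F2 against 124 to 129 CPM, and Atp1b3 at 93.3 CPM in the same library against 104.1 to 105.4 CPM. Smap2 was at 53.0 CPM in Y FIS M2 against 45.3 to 46.3 CPM. S100a9, the neutrophil gene, was at 34.6 CPM in Y VEH M1 against 3.21 to 6.10 CPM in the other Y VEH libraries. Col3a1, the fibroblast collagen, was at 104.6 CPM in Y FIS M1 against 60.1 to 65.3 CPM. Snx20 was at 4.01 CPM in Y VEH F1 against 1.90 to 2.11 CPM, and at 3.75 CPM in O FIS F1 against 1.76 to 1.98 CPM.

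The age effect differed between classes of ECs for some genes. Between O VEH and Y VEH it differed for 1 gene between capillary and arterial-type ECs and for 1 gene between capillary and Vwf-positive ECs. Over both treatments it differed for 24 and 70 genes. Against arterial-type ECs, Lpl stood at 1355 against 1141 CPM (old against young) in capillary and 320 against 169 CPM in arterial-type cells, and Btnl9 at 653 against 553 and 864 against 509 CPM (adjusted p = 0.016 for both). Against Vwf-positive ECs, the immune checkpoint ligand Cd274 stood at 85.4 against 64.0 CPM in capillary and 39.1 against 19.995 CPM in Vwf-positive cells.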

How the results depend on the processing

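With each replicate left out in turn, DARs numbered 4 to 16 (O VEH against Y VEH), 0 to 0 (both fisetin contrasts and the interaction), 2 to 11 (O FIS against Y VEH), 51 to 94 (age over both treatments) and 8 to 25 (sex). By DESeq2 they numbered 39, 43, 147 and 81 in the age, O FIS against Y VEH, age over both and sex contrasts, 3 for fisetin in young mice and 1 for the interaction. Without a filter on low counts they were 122, 12 (fisetin in old), 51 (fisetin in young), 123, 280, 273 and 25 (interaction). Total count scaling gave 8 for age and 2 for O FIS against Y VEH. Without cells holding genes of other lineages the counts were 7, 10 and 44 for age, O FIS against Y VEH and age over both, and thinning to 1500 UMIs gave 8 for age and 37 for age over both. O FIS against Y VEH gave 14 with at least 4 markers and 9 without the top 5% of UMIs. The cause of these shifts was not tested.

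The capillary share of ECs moved, with a replicate left out, over 2.23 to 9.16 points (age), -3.54 to 2.50 (fisetin in old), -5.45 to 3.58 (fisetin in young), 1.04 to 7.98 (O FIS against Y VEH), 4.04 to 7.91 (age over both) and 0.914 to 5.22 (sex). The share of all cells moved over 8.60 to 14.2, -2.35 to 3.81, 4.27 to 8.42, 10.4 to 14.8, 7.60 to 9.84 and -1.34 to 1.71 points. With Vwf not used by the rule, fisetin in young mice moved the share of ECs by 0.426 points. For age the share of all cells was 9.73 points higher with at least 4 markers (exact permutation p = 0.0857), and O FIS against Y VEH, at 11.8 points (exact permutation p = 0.0571), passed the threshold by edgeR on cell counts (0.715 on the log2 scale, edgeR p = 0.00704), with the block (edgeR p = 0.0104) and without O FIS F1 (14.8 points, exact permutation p = 0.0286). For sex it was -0.0276 thinned, -0.386 with Vwf not used and -0.00242 (log2) by edgeR.

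Leaving out each library for the depth of capillary cells, chosen after seeing the data, gave UMIs per cell of 11.7 to 375, -420 to -235, -347 to 260, -324 to 39.6, -149 to 137 and 86.2 to 420 in the same order of contrasts, and genes per cell of -6.83 to 120.5, -124 to -77.2, -136 to 73.3, -107 to 20.8, -36.4 to 53.2 and -6.63 to 97.5. Genes whose age effect differed between classes numbered 0 to 17 and 15 to 43 (arterial-type, O VEH against Y VEH and both treatments) and 1 to 3 and 7 to 98 (Vwf-positive). Unfiltered they were 54, 107, 379 and 611, and thinned 5 (arterial-type, O VEH against Y VEH), 0 and 42 (Vwf-positive).

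The replicate numbers gave no consistent pairing of the samples. Over 6706 genes, the 9 pairs of same-numbered libraries correlated from -0.522 to 0.292, with 4 over 0.1. With the replicate block DARs numbered 10, 0, 1, 6, 65, 14 and 1 (age, fisetin in old, fisetin in young, O FIS against Y VEH, age over both, sex, interaction), and the block in edgeR on cell counts gave 0.0348 (share of ECs, fisetin in old) and 0.728 (share of all cells, O FIS against Y VEH) on the log2 scale. Of the named genes' alternatives, 2493 kept direction and side of the threshold, 880 lost the threshold, 8 gained it and 0 reversed. Thinning to 1500 UMIs kept 73 and lost 88 of the named results, differences between classes included, and leaving out cells with genes of other lineages kept 39 and lost 23.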

Other observations

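Lists of capillary function held no DAR with age over both treatments, where 0.593% of all genes were DARs and 6.44% were higher and 6.08% lower at unadjusted p under 0.05. At that unadjusted threshold 0 of 20 genes of fatty acid uptake and use were higher and 3 lower (median log2 fold change -0.04), 1 and 2 of 15 of junctions and caveolae, and 0 and 0 of 7 of MHC class II presentation. Of 17 vasoactive and antithrombotic genes 2 were higher and 5 lower (median 0.01), among them the flow-induced transcription factor Klf2, named after its values were seen, at 1463 ± 446 CPM in young and 1047 ± 359 in old libraries. Of 16 basement membrane genes, 6 were lower and 1 higher at unadjusted p under 0.05 (median -0.15), with no DAR. The collagen Col4a1 stood at 1172 ± 99.3 CPM in young and 968 ± 158 in old libraries (edgeR unadjusted p = 0.0115), and the laminin Lamb1 at 49.1 ± 16.4 and 75.9 ± 38.9 CPM (unadjusted p = 0.0288). Of 11 hypoxia-induced genes, 3 were higher and none lower at that threshold (Pdk1, Bnip3 and Ankrd37, median 0.21).

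Several DARs with age lay outside the lists and were named after their values were seen. Fmo2, a flavin-containing monooxygenase, rose from 194 ± 18.9 to 280 ± 48.4 CPM, and the fatty acid desaturase Scd1 fell from 63.4 ± 23.1 to 29.3 ± 9.42 CPM. The endothelial surface lectin Clec14a rose from 97.4 ± 13.4 to 129 ± 14.3 CPM, the ephrin receptor Epha4 from 87.8 ± 20.9 to 127 ± 35.6 CPM and the taurine transporter Slc6a6 from 537 ± 177 to 789 ± 104 CPM.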
